A study of Mus musculus with 50 samples.

Results

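Apolipoprotein mRNAs were followed through 10 groups of mouse RNA-seq libraries by taking every row of the gene count tables whose symbol was on a fixed list of genes. The list held 10 genes (Apoa1, Apoa2, Apoa4, Apoa5, Apob, Apoc1, Apoc2, Apoc3, Apoe and Apom), and all 10 were found among the 24984 genes counted. Every library is labelled C57BL/6. The study's methods give female sex for the untreated young and old mice, and the sex of the DMSO and 3C mice and of the fibroblast donors is not given in the sources used here. Kidney and liver came from untreated young mice of 2.5 months and untreated old mice of 23 to 25 months, with 4 RNA libraries in each of these 4 groups. Kidney and liver also came from mice of 20 to 21 months given the solvent DMSO or a treatment labelled 3C, again with 4 RNA libraries in each of 4 groups. Skin fibroblasts labelled P9 were given DMSO or 3C, with 3 RNA libraries in each group. The labels say neither what 3C is nor what P9 marks, and they do not say whether libraries of a group came from separate animals or cultures, so the p-values measure only the spread between libraries. Chromatin accessibility was measured by ATAC-seq in 12 libraries, 3 each from young kidney, old kidney, young liver and old liver.

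Apolipoproteins are the protein parts of lipoproteins, the particles that carry cholesterol and triglyceride through plasma. Apob forms the backbone of very low density lipoprotein and, after lipolysis, of low density lipoprotein, and each such particle keeps its Apob molecule for life. Apoa1 and Apoa2 are the main proteins of high density lipoprotein, the C apolipoproteins and Apoa5 act on lipoprotein lipase and on remnant clearance, and Apoe is the ligand by which receptors of the low density lipoprotein family remove remnants. Hepatocytes make most of these proteins, whereas Apoe is also made by macrophages and many other cells, and Apom, the carrier of sphingosine-1-phosphate in high density lipoprotein, is made by hepatocytes and kidney tubule cells.

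Of the 10 genes, 7 lie in 2 clusters. In the GRCm38.p6 annotation, the build that corresponds to the mm10 genome used for the libraries, Apoa1 (chr9:46228630-46230469, plus strand), Apoc3 (chr9:46233050-46235636, minus strand), Apoa4 (chr9:46240844-46243458, plus strand) and Apoa5 (chr9:46268608-46271921, plus strand) occupied 43.3 kb. Apoc2 (chr7:19671579-19677941), Apoc1 (chr7:19689480-19692659) and Apoe (chr7:19696244-19701310), all on the minus strand, occupied 29.7 kb. Apoa2 (chr1:171221564-171226379, plus strand), Apob (chr12:7977629-8016839, plus strand) and Apom (chr17:35128997-35131801, minus strand) stood alone. Apob had by far the longest mRNA of the 10, with 13909 bases of annotated exon, against 554 bases for Apoc1 at the other end. For Apoc2, 60.02% of the exon length overlapped the readthrough gene Gm44805, which had 0 counts in all 38 libraries, so reads in the shared stretch could be given to neither gene and the Apoc2 counts are uncertain. A shorter overlap, 15.28% of its exon length, joined Apoa2 to Tomm40l.

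Promoter sequences are shown for the genes that the results below turn on: Apoa1, whose start site carried peaks in liver and none in kidney, Apoa4 and Apoe, whose mRNA was higher in old kidney, and Apoa5 and Apob, which hold the letters TATAAA shortly before the start. Each is 300 bases from RefSeq on GRCm38.p6, from 250 bases before to 50 bases after an annotated start, read 5′ to 3′ on the gene's strand, with TATAAA in capitals where it occurs. The windows are chr9:46228380-46228679 (plus strand) for Apoa1, chr9:46240594-46240893 (plus strand) for Apoa4, chr9:46268358-46268657 (plus strand) for Apoa5, chr12:7977427-7977726 (plus strand) for Apob and chr7:19699139-19699438 (minus strand) for Apoe.
Apoa1: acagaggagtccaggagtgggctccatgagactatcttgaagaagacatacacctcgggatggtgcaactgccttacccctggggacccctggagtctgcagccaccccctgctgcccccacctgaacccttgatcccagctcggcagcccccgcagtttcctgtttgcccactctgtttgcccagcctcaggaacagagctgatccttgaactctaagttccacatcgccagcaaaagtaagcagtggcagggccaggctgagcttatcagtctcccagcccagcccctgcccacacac
Apoa4: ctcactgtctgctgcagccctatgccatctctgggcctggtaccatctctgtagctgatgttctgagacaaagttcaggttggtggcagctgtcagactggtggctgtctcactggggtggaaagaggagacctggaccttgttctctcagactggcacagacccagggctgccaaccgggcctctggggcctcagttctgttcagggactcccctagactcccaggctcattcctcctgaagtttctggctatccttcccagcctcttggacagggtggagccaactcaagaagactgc
Apoa5: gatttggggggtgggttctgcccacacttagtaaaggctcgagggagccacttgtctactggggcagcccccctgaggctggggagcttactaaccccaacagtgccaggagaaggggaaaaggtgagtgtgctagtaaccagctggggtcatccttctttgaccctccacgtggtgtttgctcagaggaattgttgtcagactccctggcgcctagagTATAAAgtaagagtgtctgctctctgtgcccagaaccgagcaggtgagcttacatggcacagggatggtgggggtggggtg
Apob: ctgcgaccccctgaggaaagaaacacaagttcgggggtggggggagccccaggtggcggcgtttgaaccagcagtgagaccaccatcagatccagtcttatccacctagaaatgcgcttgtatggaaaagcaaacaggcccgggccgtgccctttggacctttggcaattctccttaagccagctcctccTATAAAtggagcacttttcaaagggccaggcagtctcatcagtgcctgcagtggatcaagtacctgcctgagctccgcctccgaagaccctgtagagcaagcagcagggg
Apoe: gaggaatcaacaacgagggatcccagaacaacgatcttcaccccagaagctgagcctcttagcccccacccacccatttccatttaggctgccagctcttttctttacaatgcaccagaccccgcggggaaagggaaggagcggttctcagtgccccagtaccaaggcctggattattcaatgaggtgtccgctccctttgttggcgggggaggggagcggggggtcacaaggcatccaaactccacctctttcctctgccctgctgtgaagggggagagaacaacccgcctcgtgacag
The promoter table held 8 of the 10 genes in 12 windows, without Apoc1 and Apoc3. Searched on both strands, TATAAA was in 13.6% of the 32851 promoters of the table. In the Apoa5 window it lay from -31 to -26 relative to the start, and in the Apob window from -60 to -55. It also lay from -212 to -207 at the main Apoa2 start and, as a pair of overlapping copies, from -100 to -91 at a minor Apoe start that is not shown. The letters CAAAGTCCA, a form of the site bound by HNF4, were in 0.475% of promoters and in no window of these genes. Other forms of that site were not searched, so its absence from these windows is not shown.

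Sequencing depth, taken as reads assigned to genes, ran from 14238228 to 43704147 per RNA library. The tissues matched their labels: summed over 13 hepatocyte marker genes, the 16 livers held 103548 to 195499 CPM (counts scaled to 1e6 reads assigned to genes), while 11 proximal tubule markers summed to 18928 to 35199 CPM in the 16 kidneys. A single library stood apart from its group. Old kidney replicate 2 held 4373 CPM of the hepatocyte markers, against 125 to 171 CPM in the other old kidneys and 78.5 to 115 CPM in the young kidneys, so kidney age results are given with and without it. In the fibroblasts the hepatocyte markers summed to at most 7.38 CPM.

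The 10 genes together took 5.30% ± 0.61 (SD, n = 4) of all gene counts in young liver and 0.121% ± 0.0097 (SD, n = 4) in young kidney. Old liver had 4.59% ± 1.14 (SD, n = 4) and old kidney 0.234% ± 0.0439 (SD, n = 4), or 0.218% ± 0.0351 (SD, n = 3) without replicate 2. The DMSO and 3C livers had 5.09% ± 0.596 and 4.57% ± 0.453 (SD, n = 4 each), and the kidneys of the same series 0.15% ± 0.0144 and 0.141% ± 0.00408 (SD, n = 4 each). In fibroblasts the share was 0.00247% ± 0.000598 with DMSO and 0.00403% ± 0.000556 with 3C (SD, n = 3 each). Apoe alone made up 2.64% ± 0.539 (SD, n = 4) of all gene counts in young liver.

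Levels of different genes were compared per length, as TPM (transcript levels scaled by exon length to the same total in every library). Apoe was the most abundant of the 10 in every group and had rank 2 among all genes in all 4 liver groups, with 31623 ± 4989 TPM (SD, n = 4) in young liver. Apoa2 followed at 16270 ± 1952 TPM and Apoa1 at 12916 ± 3325 TPM, ranks 3 and 5 among all genes in young liver, and the ranges of this pair overlapped. Apoc1, which inhibits remnant uptake, was at 8546 ± 1508 TPM and Apoc3, an inhibitor of lipoprotein lipase, at 6227 ± 529.8 TPM, again with overlapping ranges. Below them, with a gap, came the lipoprotein lipase stimulator Apoa5 at 1459 ± 106 TPM, then Apom at 896 ± 76.9 TPM. Apob at 597 ± 189 TPM and Apoa4, a protein of intestinal and plasma lipoproteins, at 377 ± 109 TPM overlapped each other (SD, n = 4 for each value in young liver). Apoc2, the activator of lipoprotein lipase, was last at 5.45 ± 2.12 TPM, a value that carries the overlap with Gm44805. The same order held in old, DMSO and 3C liver.

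In kidney the order was different. Apoe led in young kidney at 965 ± 140.2 TPM, Apom followed at 246 ± 26.3 TPM, and then Apob at 52.2 ± 18.9 TPM (SD, n = 4 each). Apoc3 at 29.3 ± 4.32 TPM overlapped Apob (SD, n = 4). Below Apoc3, without overlap, Apoc1 at 17.4 ± 8.58 TPM overlapped Apoa2 at 16.3 ± 1.94 TPM, which overlapped Apoa4 at 11.6 ± 3.65 TPM (SD, n = 4 each). Apoa1, which had rank 3 of the 10 in liver, lay below these at 1.46 ± 0.332 TPM (SD, n = 4), and no read of Apoa5 or Apoc2 was counted in any young kidney. Apom and Apob thus had ranks 2 and 3 of the 10 in young kidney but 7 and 8 in young liver. In the DMSO and 3C kidneys Apoe, Apom and Apob again took the first 3 places. In old kidney Apoe and Apom did so too, while ranks 3 to 6 went to Apoa2, Apoa1, Apoc1 and Apoc3, whose means rested on replicate 2.

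**Figure D1:**
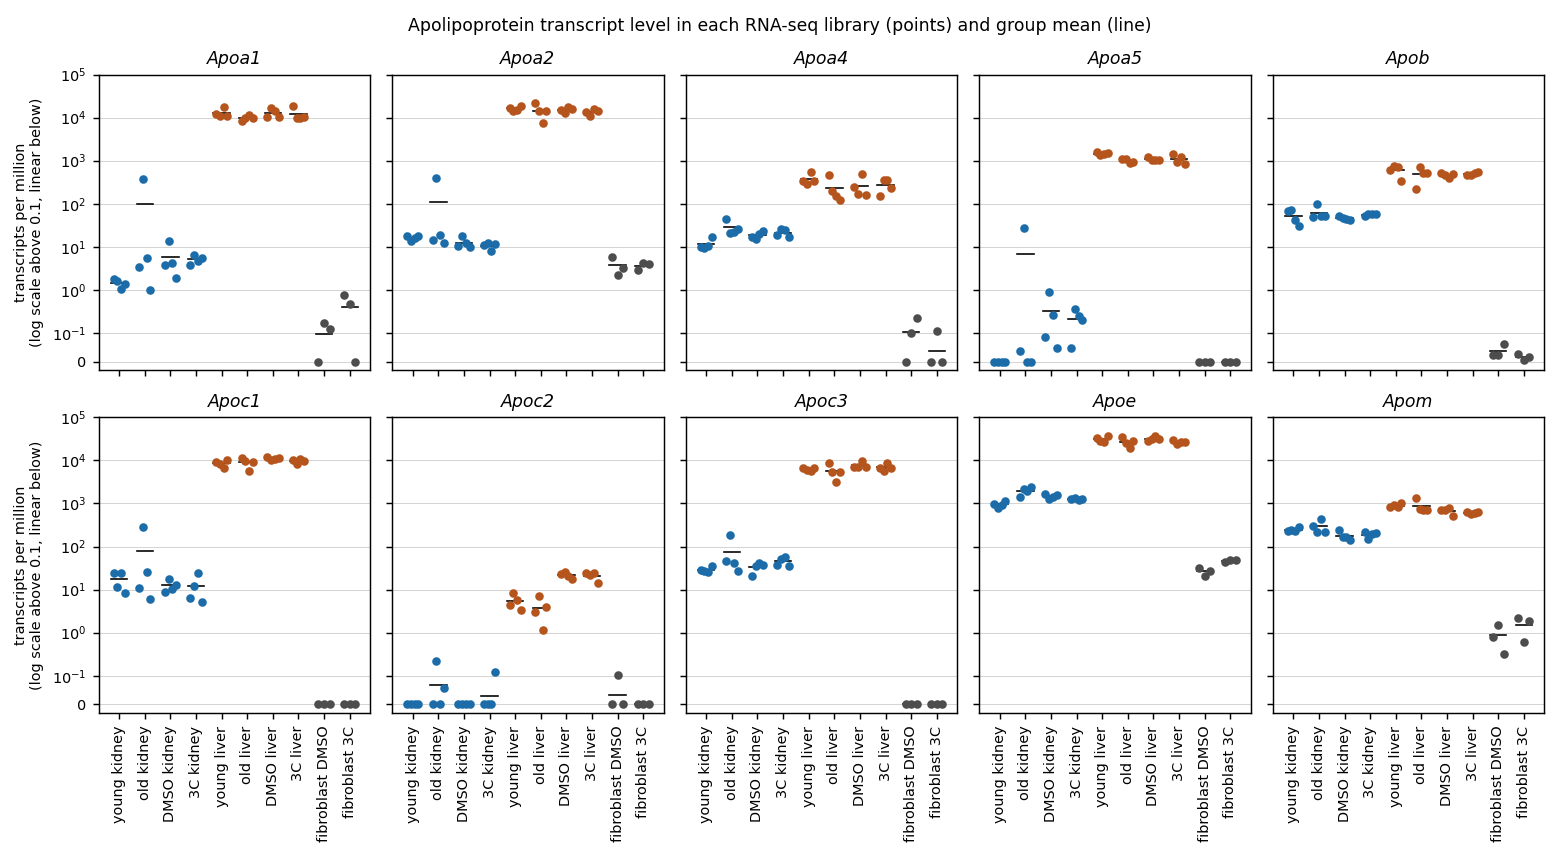
Level of each apolipoprotein mRNA in each of the 38 RNA libraries, in TPM, with 1 point per library and the libraries grouped by tissue, age and treatment. The axis is logarithmic and turns linear at the lowest values. Liver points lie above kidney points for every gene, most closely for Apom, and in old kidney a single point, replicate 2, lies far above the rest for Apoa1, Apoa2, Apoa5 and Apoc1.

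The first comparison asked how far the 10 genes differed between liver and kidney at the same age. Every one was higher in liver in both untreated young mice and DMSO-treated mice, and for each gene all 4 livers lay above all 4 kidneys. Among all genes, 16.9% of the 14057 tested were higher in young liver, with a fold above 2 and an adjusted p under 0.05 (edgeR quasi-likelihood test, Benjamini-Hochberg adjustment over all genes), and 15.7% of 14981 in DMSO liver. All livers lay above all kidneys, by CPM, for 10.1% and 10.4% of genes.

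Apom was the least liver-restricted of the 10. Its young kidneys held 81.5, 85.1, 84.1 and 115 CPM, and its young livers 328, 349.9, 332 and 428 CPM. The ratio of pooled CPM was 3.94, and the log2 fold change was 3.07 ± 0.20 (SE, edgeR adjusted p = 6.2e-08). This fold is larger than the ratio because edgeR's TMM scaling (trimmed mean of M values) divides out the few very abundant liver mRNAs. Apob had 424, 450.3, 279.8 and 227 CPM in young kidney and 4252, 5136, 5254 and 2586 CPM in young liver, a ratio of 12.1 and a log2 fold change of 4.72 ± 0.29 (SE, edgeR adjusted p = 3.2e-08).

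Apoe was abundant on both sides, with 714, 586, 728 and 951 CPM in young kidney and 27536, 22291, 22245 and 33598 CPM in young liver. The ratio was 35.9, close to the 34.8 of Apoa4, which had 7.54, 7.13, 8.22 and 14.9 CPM in kidney and 289.6, 244, 461 and 322 CPM in liver. Their log2 fold changes were 6.25 ± 0.33 for Apoe and 6.21 ± 0.35 for Apoa4 (SE, edgeR adjusted p = 8.7e-09 and 1.6e-08). The differences of the remaining genes were several times larger. Apoc3 had a ratio of 229.9 and a log2 fold change of 8.93 ± 0.29, Apoc1 a ratio of 565 and 10.2 ± 0.44, and Apoa2 a ratio of 1092 and 11.2 ± 0.34 (log2 fold change ± SE). Apoa1, at 0.82, 0.731, 0.492 and 0.727 CPM in kidney and 6112, 5483, 9094 and 5992 CPM in liver, had a ratio of 9388 and a log2 fold change of 14.3 ± 0.38 (SE, edgeR adjusted p = 5.2e-11).

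Apoa5 and Apoc2 had no read in young kidney and could enter the test only through the livers. Set against 3 counts over the 4 kidneys, the most that a count of 0 allows, Apoa5 was at least 46672-fold higher in young liver, where it measured 2027, 1692, 1846 and 2183 CPM. The 4 young livers held 1.86, 3.38, 2.42 and 1.53 CPM of Apoc2, at least 55.5-fold more than kidney. These bounds and the ratios of low counts cover counting error only.

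The DMSO-treated mice, of 20 to 21 months, gave the same direction for each gene. Their log2 fold changes were 3.07 for Apom, 4.41 for Apob, 4.99 for Apoa4, 5.57 for Apoe, 9.01 for Apoc3, 10.9 for Apoc1, 11.4 for Apoa2, 12.3 for Apoa1 and 13.0 for Apoa5, and Apoc2, at 0 in those kidneys too, was at least 209-fold higher in liver. Scaling by library totals in place of TMM moved the median log2 fold change of all genes from -0.08 to -1.16 in the young mice and from -0.07 to -1.06 in the DMSO mice. With it the genes higher and lower in young liver changed from 2369 and 3618 to 1240 and 7802, and in DMSO liver from 2348 and 3988 to 1200 and 7810. All 10 apolipoproteins were higher in liver under that scaling too.

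Genes that work with apolipoproteins were read from lists drawn up by function. Together they held 89 genes tested in young mice, of which 61 were higher and 15 lower in liver. Of these 89, 7 other apolipoproteins and 2 transcription factors had at most 3 counts over the 4 young kidneys, so they entered the test only through liver and the counts say little of them. Of 17 other apolipoproteins and apolipoprotein-like genes tested in young mice, 15 were higher in liver, among them Apoh (log2 fold change 15.3, on 10 counts over the 4 kidneys), Saa4 (2 counts over the 4 kidneys and 15708 over the 4 livers) and the high density lipoprotein enzyme Pon1 (log2 fold change 12.6, on 40 kidney counts), and 1, the mitochondrial Apoo (-1.29), was lower. Of 13 genes of lipoprotein assembly and secretion, 11 were higher, among them Mttp (4.28), which loads lipid onto Apob, Dgat2 (2.43), an enzyme of triglyceride synthesis, and Apobec1 (2.84), which edits the Apob mRNA, while the sorting receptor Sort1 was lower (-1.54). Receptors split: 10 of 20 were higher in liver, among them Sdc1 (5.03), Scarb1 (3.96) and Lsr (3.45), and 8 were lower, led by the proximal tubule receptors Cubn (-11.9) and Lrp2 (-13.0) and their adaptor Dab2 (-4.17). Of 15 genes for lipases, efflux and remodelling, 13 were higher, among them Lcat (10.4), Abcg8 (11.7, on 4 kidney counts) and Abcg5 (11.04, on 6), and Lpl, lipoprotein lipase itself, was lower (-5.40). Of 24 nuclear receptors and transcription factors, 12 were higher, among them Foxa2 (1 count over the 4 kidneys and 2125 over the 4 livers), Nr5a2 (8.50) and Cebpa (3.01), and 4 were lower, among them Hnf4g (-4.75) and Ppargc1a (-3.04).

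Apoe and Apoa4 rose with age in kidney. The comparison asked which of the genes differed between 4 old and 4 young kidneys, and 8 of the 10 had enough reads to be tested, Apoa5 and Apoc2 having too few. These 2 rises compare with 5.68% of the 14495 genes tested that were higher by the same rule, and 6.08% that differed in either direction. Without old kidney replicate 2 the same 2 genes rose, and 5.9% of 14519 genes did.

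Apoe measured 714, 586, 728 and 951 CPM in young kidney and 1203, 1610.1, 1723 and 1889 CPM in old kidney. All 4 old kidneys were above all 4 young kidneys, as was so for 13.5% of the genes tested. The log2 fold change was 1.07 ± 0.19 (SE, edgeR adjusted p = 0.0072), and without old kidney replicate 2 it was 1.09 ± 0.21 (SE, edgeR adjusted p = 0.0082). The value lay close to the 2-fold limit: leaving out young kidney replicate 2 gave 0.95 (edgeR adjusted p = 0.0277) and leaving out old kidney replicate 3 gave 0.99 (edgeR adjusted p = 0.0146).

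Apoa4 measured 7.54, 7.13, 8.22 and 14.9 CPM in young kidney and 39.2, 16.6, 21.5 and 21.6 CPM in old kidney, again with no overlap. Its log2 fold change was 1.35 ± 0.35 (SE, edgeR adjusted p = 0.0328) and was 1.52 ± 0.32 (SE, edgeR adjusted p = 0.0122) without old kidney replicate 2, which had the lowest Apoa4 of the old kidneys. The call was lost, with log2 fold changes of 1.01 to 1.44, when young replicate 1, 2 or 3 or old replicate 1 or 4 was left out, with edgeR adjusted p-values of 0.0935, 0.106, 0.0992, 0.0741 and 0.0618.

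Markers of several cell types also differed between old and young kidneys. Summed over 15 genes, macrophage markers were at 127 to 151 CPM in the young kidneys and 700.5 to 1833 CPM in the old kidneys. Of these markers, 11 of the 11 tested rose, among them Lyz2 (log2 fold change 3.54) and C1qa (2.78). In old kidneys 1 to 4 the macrophage sums were 710, 1144, 700.5 and 1833 CPM. In the same order Apoe was at 1203, 1610.1, 1723 and 1889 CPM and Apoa4 at 39.2, 16.6, 21.5 and 21.6 CPM. B and plasma cell markers went from 171 to 215 CPM in young to 614 to 811 CPM in old kidneys, and fibroblast markers were at 419 to 502 CPM in young and 455 to 1047 CPM in old kidneys. Proximal tubule markers summed to 28374 to 35199 CPM in young and 20045 to 30058 CPM in old kidneys, with 1 of 11 lower in the test and 2 of 11 without replicate 2. Of 7 hepatocyte markers tested, 2 were higher with all libraries and also 2 without replicate 2, where the summed level of all 13 was 125 to 171 CPM in old and 78.5 to 115 CPM in young kidneys. The part of these cells in the Apoe and Apoa4 rises was not tested, and in whole tissue a change in the number of cells of a type cannot be told apart from a change in RNA per cell.

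For the other 6 genes tested, old and young kidneys overlapped, and in 5 of them, all but Apom, the highest value was that of old kidney replicate 2. Apoa1 measured 1.82, 172, 3.17 and 0.48 CPM in old kidney and at most 0.82 CPM in young kidney. Its log2 fold change of 5.87 ± 1.79 (SE, edgeR adjusted p = 0.062) became 1.39 ± 0.60 (SE, edgeR adjusted p = 0.116) without that library. Apoa2 measured 7.44, 169.6, 10.2 and 5.58 CPM in old against 7.76, 5.99, 7.23 and 8.67 CPM in young kidney, and its log2 fold change went from 2.60 to 0.07 without replicate 2. Apoc1 measured 3.35, 71.7, 8.26 and 1.69 CPM in old against 6.34, 3.02, 6.6 and 2.46 CPM in young kidney, and went from 2.13 to -0.02. Apoc3 measured 18.5, 65.4, 17.4 and 10.2 CPM in old against 9.67, 9.51, 9.34 and 13.98 CPM in young kidney, and went from 1.32 to 0.53 (edgeR adjusted p = 0.17 without replicate 2).

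Apob and Apom, the most abundant after Apoe, showed smaller differences. Apob measured 373, 625, 418 and 353 CPM in old kidney, with a log2 fold change of 0.33 ± 0.23 (SE, edgeR adjusted p = 0.35) that was 0.16 without replicate 2, 95% interval -0.31 to 0.63. Apom measured 124, 78.9, 189 and 83.7 CPM in old kidney, with a log2 fold change of 0.37 ± 0.30 (SE, edgeR adjusted p = 0.43) and 0.54 without replicate 2. Apoa5 had 31.6 CPM in replicate 2 and at most 0.0492 CPM in the other old kidneys, and Apoc2 at most 0.0827 CPM in any.

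**Figure D2:**
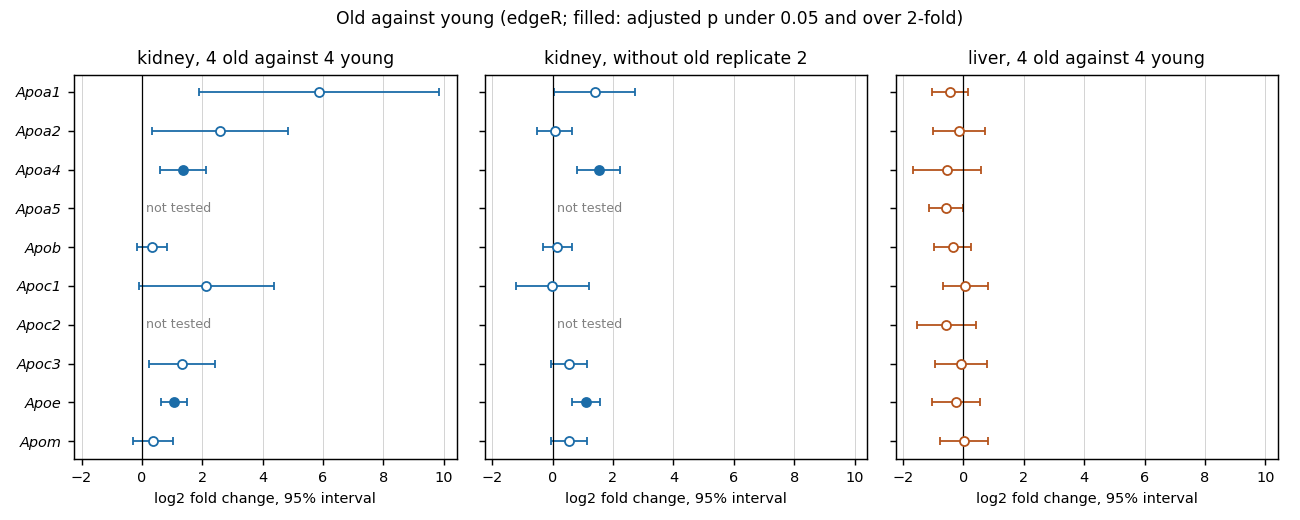
Log2 fold change of each apolipoprotein, old against young, in kidney with all libraries, in kidney without old kidney replicate 2, and in liver, with 95% intervals from the edgeR fit. The kidney intervals of Apoa1, Apoa2 and Apoc1 shrink and move towards 0 without that library, while Apoe and Apoa4 stay near 1.09 and 1.52.

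The apolipoproteins in old kidney replicate 2 could be set beside its liver transcripts gene by gene. Its level above the median of the other 3 old kidneys, as a percent of the mean old liver level, was 0.949 to 3.61 for the 13 hepatocyte markers, with a median of 1.66. Apoa1 was at 3.32%, Apoa2 at 2.22%, Apoa5 at 2.37%, Apoc1 at 2.56% and Apoc3 at 2.09%, all inside the range of the markers. Apob, at 7.05%, lay above it. Apoa4 at -2.33%, Apoe at -0.49% and Apom at -12.2% lay below 0, so this library had less of these 3 mRNAs than the median of the other old kidneys. Old livers held a mean of 23010 CPM of Apoe and 218 CPM of Apoa4, so liver transcripts could still add to both here. That part was not subtracted or tested, and this library's place above the young kidneys carries that limit. Without it, the old kidneys still lay above all young kidneys for Apoe and Apoa4. For Apoc2 the library held 2 counts, too few to place it.

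**Figure D3:**
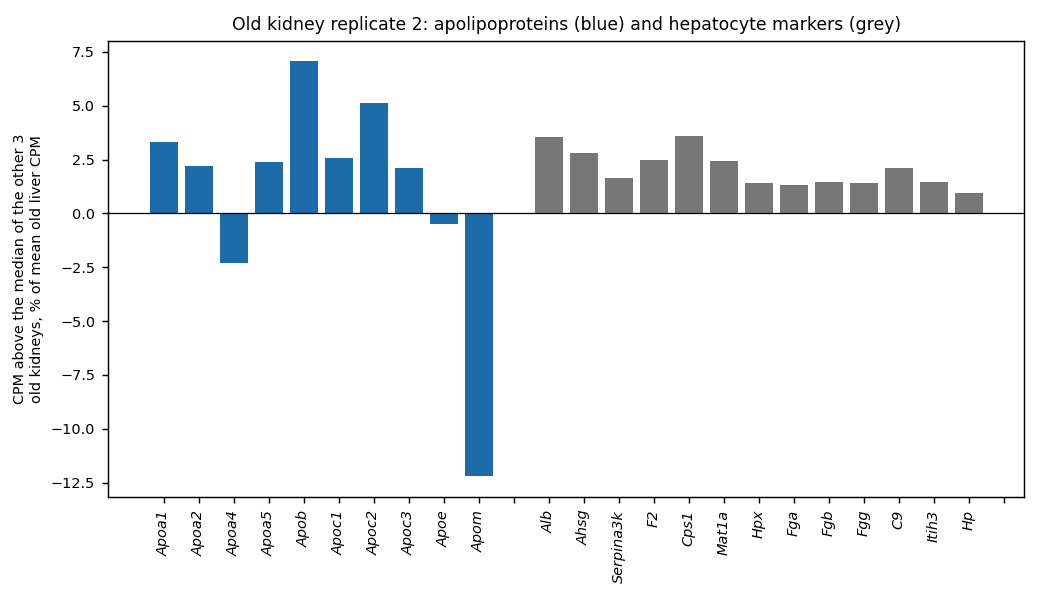
Level in old kidney replicate 2 above the median of the other old kidneys, as a percent of the mean old liver level, for the apolipoproteins and for 13 hepatocyte markers, 1 bar per gene. The 5 apolipoproteins Apoa1, Apoa2, Apoa5, Apoc1 and Apoc3 lie among the markers at 2.09% to 3.32%, and Apoa4, Apoe and Apom lie below 0.

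Of 78 partner genes tested in ageing kidney, 16.7% were called, 10 higher and 3 lower, beside 6.08% of all genes tested. The lists were chosen with earlier results of these data known, so the larger share cannot be read as an enrichment. Of 12 other apolipoproteins tested, 3 rose: the acute phase protein Saa3 (log2 fold change 5.0) and Apol9a and Apol9b (1.74 and 1.44), a near-identical pair between which reads could be split. Of 13 assembly genes, Apobec1 rose (1.44) and A1cf, its RNA-binding partner in editing, fell (-1.02). Of 20 receptors, Lrp8 (1.71), which binds Apoe, and Apobr (1.88) and Msr1 (3.05), both found on macrophages, rose, and the endothelial scavenger receptor Stab2 fell (-1.07). Of 12 genes for lipases, efflux and remodelling, those that rose included the phospholipid transfer protein Pltp (1.80) and hepatic lipase Lipc (3.71, or 2.89 without old kidney replicate 2), while Lpl fell (-1.22). None of 21 nuclear receptors and transcription factors passed in edgeR. Without replicate 2 the proximal tubule receptor Lrp2 also fell (-1.06), and the named genes kept their calls.

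In liver, age changed none of the 10 apolipoproteins at the threshold, which 2.13% of the 12537 genes tested passed. At an unadjusted p under 0.05 there were 1846 genes in the edgeR fit, and Apoa5 was the single apolipoprotein among them. Apoa5 measured 2027, 1692, 1846 and 2183 CPM in young and 1634.6, 1368, 1157 and 1174 CPM in old liver, so all old livers lay below all young livers, as was so for 2.46% of the genes tested. Its log2 fold change was -0.58 ± 0.26 (SE, edgeR adjusted p = 0.33).

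The abundant apolipoproteins were spread widely among old livers. Apoe measured 32524, 20329, 16204 and 22984 CPM in old liver, and its log2 fold change was -0.23 (95% interval -1.03 to 0.56). Apoa2 measured 8111, 6867, 7196 and 9883 CPM in young and 11898, 6742, 3765 and 6833 CPM in old liver, which gave a log2 fold change of -0.15 (95% interval -1.02 to 0.73). Apoa1 had 4968, 4745, 6029 and 4808 CPM in old liver and a log2 fold change of -0.44 (95% interval -1.03 to 0.16). Old liver replicate 1 held the most Apoa2, Apoc1, Apoc3, Apoe and Apom of the old livers and the least Apob, at 1867 CPM against 3555 to 4991 CPM.

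Apob, at a log2 fold change of -0.36 (95% interval -0.98 to 0.26), Apoc3 at -0.08 (-0.94 to 0.77), Apoc1 at 0.07 (-0.68 to 0.81) and Apom at 0.03 (-0.76 to 0.81) had intervals that span 0. Apoa4 depended on that same library. It measured 289.6, 244, 461 and 322 CPM in young and 471, 163, 134 and 103 CPM in old liver, with a log2 fold change of -0.55 ± 0.51 (SE, edgeR adjusted p = 0.74), and without old liver replicate 1 the value was -1.48 (edgeR adjusted p = 0.0147). Macrophage markers were at 796 to 1073 CPM in young and 1387 to 2513 CPM in old livers, with 7 of 15 higher in the test, and their part in the apolipoprotein values was not tested.

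Of 83 partner genes tested in ageing liver, 8.43% were called, 4 higher and 3 lower, beside 2.13% of all genes tested. Here too the lists were chosen with earlier results known, so the shares are descriptive. Of 17 other apolipoproteins tested, the acute phase genes Saa1 (log2 fold change 6.31) and Saa2 (7.14), which share near-identical sequence, rose, with old livers ranging from 53.4 to 10039 CPM for Saa1 and from 25.9 to 10750 CPM for Saa2. Sort1 fell (-2.27) among 13 assembly genes, and the fatty acid transporter Cd36 rose (1.33) among 16 receptors. Of 15 genes for lipases, efflux and remodelling, Lpl rose (1.31), and the sterol exporters Abcg5 (-1.51) and Abcg8 (-1.28), which work as a pair, fell. None of 22 nuclear receptors and transcription factors passed.

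A direct test asked whether the effect of age differed between the tissues. None of the 10 genes passed in edgeR at an adjusted p under 0.05, against 1.72% of 15036 genes tested (2109 genes had an unadjusted p under 0.05). Apoe, which rose in kidney, had a difference of -1.26 ± 0.52 on the log2 scale, liver minus kidney (SE, edgeR adjusted p = 0.27), and -1.34 without old kidney replicate 2 (edgeR adjusted p = 0.23). Apoa4 had -1.88 ± 0.70 (SE, edgeR adjusted p = 0.21), and -2.08 without that replicate (edgeR adjusted p = 0.18). Apoa4 passed with the replicate number as a block (-2.19, edgeR adjusted p = 0.0374) and without old liver replicate 1 (-2.81, edgeR adjusted p = 0.0072), so its call rests on the fit and on that library. For Apoa1 the difference was -6.22 (edgeR adjusted p = 0.077) and, without old kidney replicate 2, when 1.1% of genes passed, -1.82 (edgeR adjusted p = 0.20). DESeq2 passed 3 of the 10, Apoa1, Apoa5 and Apoe, and the kidney reads of Apoa1 and Apoa5 come mainly from that replicate. Of 92 partner genes tested, 7.61% passed, and 5.43% without old kidney replicate 2, on lists chosen with earlier results known. Among those that passed were Sort1 (-1.93, and -1.86 without that replicate), Lpl (2.56, and 2.35), Lipc (-4.11, and -3.35) and Creb3l3 (-5.42, and -4.50), while Cd36 (1.14) and Hnf4g (2.43) passed with all libraries and not without it.

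Fibroblasts expressed Apoe and little else of the set. With DMSO, Apoe was at 26.5 ± 4.94 TPM and Apoa2 at 3.73 ± 1.80 TPM (SD, n = 3 each), and Apom, Apoa1, Apoa4, Apob and Apoc2 were each below 1 TPM. Apoa5, Apoc1 and Apoc3 had no read in the 6 libraries, which allows at most 0.0473 CPM with DMSO and 0.0553 CPM with 3C (3 counts over the 3 libraries of a group). Only 3 of the 10 genes had enough reads to be tested.

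The comparison of 3C with DMSO called none of the 3, against 1.87% of 13449 genes tested in edgeR (2714 had an unadjusted p under 0.05). Apoe measured 27.4, 16.9 and 21.9 CPM with DMSO and 32.2, 37.7 and 42.9 CPM with 3C, so all 3C libraries lay above all DMSO libraries, as was so for 15.9% of the genes tested. The log2 fold change was 0.72 ± 0.19 (SE, edgeR adjusted p = 0.061). Apoa2 measured 2.98, 1.04 and 1.53 CPM with DMSO and 1.25, 1.92 and 2.05 CPM with 3C, a log2 fold change of -0.14 ± 0.42 (SE). For Apom it was 0.57 ± 0.63 (SE), from 0.122 to 0.585 CPM with DMSO and 0.229 to 0.771 CPM with 3C. Other lipid carriers passed the test: Clu (2.32) and Apod (1.78), both apolipoproteins of high density lipoprotein, rose, Saa3 fell (-1.48), and Lpl rose (1.28), out of 12 other apolipoproteins and 9 lipase, efflux and remodelling genes tested. None of 12 assembly genes, 18 receptors or 12 nuclear receptors and factors passed.

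In kidney and liver of the 20 to 21 month mice, 3C changed no apolipoprotein at the threshold, which 0% of 14974 genes in kidney and 0% of 13042 in liver passed in edgeR. At an unadjusted p under 0.05 there were 1786 genes in kidney and 436 in liver, and DESeq2 called 4 genes in kidney and 3 in liver, none of them among the 10. In kidney Apob measured 343, 309, 290.0 and 277 CPM with DMSO and 346, 360.3, 357 and 360.4 CPM with 3C. Every 3C kidney lay above every DMSO kidney, as was so for 1.72% of the genes tested, and the log2 fold change was 0.26 ± 0.07 (SE, edgeR adjusted p = 0.23). Apoc3 measured 7.32, 12.2, 14.2 and 13.1 CPM with DMSO and 13.4, 17.5, 19.6 and 12.1 CPM with 3C, with overlap and a log2 fold change of 0.45 ± 0.20 (SE, edgeR adjusted p = 0.41).

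Apoe, the gene that was higher in old kidney, measured 1221, 952, 1018 and 1187 CPM with DMSO and 978, 976, 878 and 938 CPM with 3C. The groups overlapped, and the log2 fold change was -0.18 ± 0.09 (SE, edgeR adjusted p = 0.47, 95% interval -0.39 to 0.02). Apoa4, at 12.9, 11.8, 15.7 and 18.1 CPM with DMSO and 14.8, 19.6, 18.2 and 12.7 CPM with 3C, had 0.18 ± 0.16 (SE, 95% interval -0.17 to 0.53). Macrophage markers summed to 553 to 692 CPM in the DMSO kidneys and 312 to 561 CPM in the 3C kidneys, and fibroblast markers to 650 to 821 and 338 to 572 CPM. Their part in the apolipoprotein values was not tested.

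In liver each of the 10 log2 fold changes of 3C against DMSO lay between -0.22 and 0.17. Apoe, the lowest, measured 22541, 25407, 31092 and 24206 CPM with DMSO and 24561, 20418, 21431 and 21412 CPM with 3C (95% interval of the log2 fold change -0.63 to 0.19). For Apob, the highest, the livers held 3712, 3162, 2888 and 3336 CPM with DMSO and 3261, 3458, 3734 and 3880.5 CPM with 3C (95% interval -0.15 to 0.48). The widest interval was that of Apoa4, -0.85 to 0.99, whose DMSO livers ran from 129 to 426 CPM. The test of whether 3C acted differently in liver and kidney passed none of the 10, as of 15526 genes (0%; 554 had an unadjusted p under 0.05). No gene of the 5 lists of other apolipoproteins, assembly, receptors, lipases and factors passed in either tissue.

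**Figure D4:**
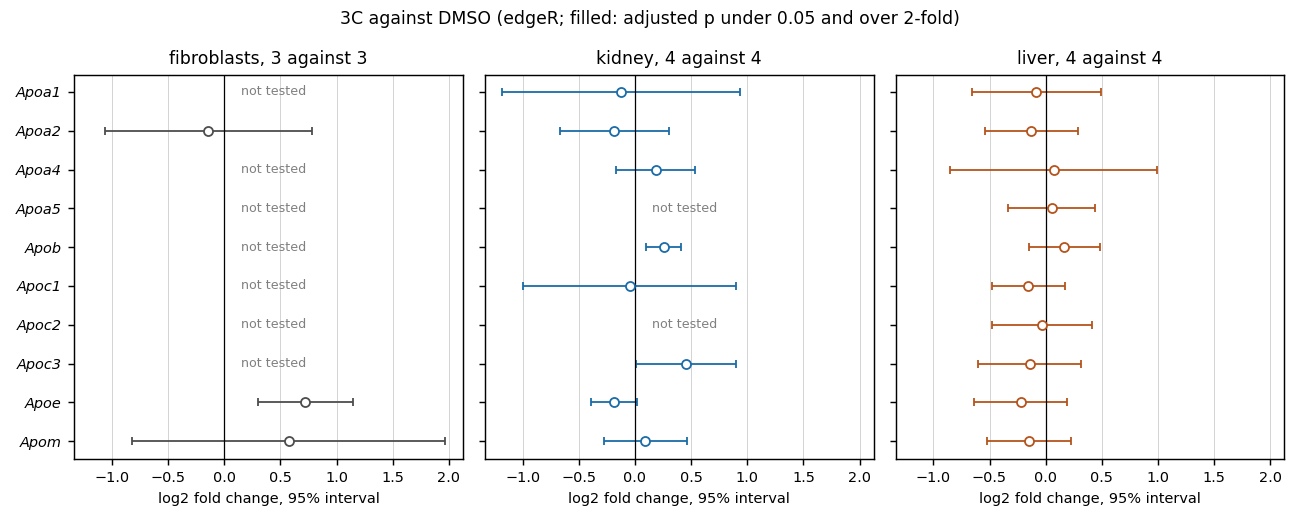
Log2 fold change of each tested apolipoprotein, 3C against DMSO, in fibroblasts, kidney and liver, with 95% intervals from the edgeR fit. Apoe in fibroblasts (0.72) and Apob (0.26) and Apoc3 (0.45) in kidney have intervals above 0, and none of them passed after adjustment over all genes.

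Accessibility was read from peaks called in each ATAC-seq library. The libraries held 108883 to 154095 peaks, and the value for a gene is the highest fold enrichment of a peak within 1 kb of an annotated start, with 0 where there was no peak. Over the 11757 genes with a peak in all 12 libraries, the median fold enrichment was 6.54 to 8.49 in the kidney libraries and 4.83 to 5.87 in the liver libraries, so levels between tissues are not on the same footing. None of the 10 genes had all 6 livers above all 6 kidneys, a pattern of 0.516% of 24429 genes.

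Apoa1 came nearest to that pattern. Its livers had peaks of 1.98, 2.26 and 2.24 (young) and 2.90, 2.11 and 0 (old), with summits 7 to 96 bases after the start, and no kidney had a peak. A peak in at least 5 livers and no kidney was found for 0.569% of genes. Apom had peaks in 3 livers (2.01 to 2.30) and no kidney, and Apoa5, whose mRNA had rank 84 among all genes in young liver, had a peak in 1 liver (2.28) and no kidney. Apoa4 had peaks in all 6 livers (2.11 to 3.52) and in 3 kidneys (2.94 to 3.70).

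Other genes had peaks in kidney that were as high or higher. Apob had 5.17 to 6.20 in the kidneys and 3.34 to 4.81 in the livers, without overlap, and its summits lay 955 to 1042 bases after the start. For Apoa2 the kidneys had 9.27 to 11.9 and the livers 2.53 to 4.99. In all 6 kidneys the summit lay 1066 to 1111 bases after a minor upstream start, outside the window, and only part of the peak fell inside. The kidney summits were 116 to 161 bases upstream of the start of Tomm40l, a gene on the opposite strand. Liver summits lay at a similar place, 1116 to 1138 bases after that start, in replicates 1 and 3 of both ages. In replicate 2 they lay at -596 (young) and -586 (old). At the main Apoa2 start, used by 4 annotated transcripts, 1 liver and no kidney had a peak. Kidneys above livers without overlap was the pattern of 18.3% of all genes. Apoc3 had peaks in all 6 kidneys (3.00 to 8.14) and in 4 livers (1.67 to 3.5), whereas its mRNA was 229.9 times as abundant, by CPM, in young liver. High liver mRNA without a higher liver peak was not particular to the apolipoproteins. Of 13 hepatocyte markers, 2 had all 6 livers above all 6 kidneys, 1 had the reverse, and 6 had a peak in all 6 livers. Apoe had peaks in all 12 libraries, 1.79 to 3.89 in kidney and 1.78 to 3.28 in liver. Apoc1 had peaks in 4 livers and 3 kidneys, and Apoc2 in 5 livers and 3 kidneys.

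Old and young libraries overlapped for 18 of the 20 combinations of gene and tissue, while over all genes 15.8% in kidney and 8.98% in liver did not overlap. The 18 include Apoa1, Apoa5 and Apom in kidney, where no library had a peak and no difference could show. The 2 others were Apob and Apoc1 in liver. Apob had 3.47, 3.42 and 3.34 in young and 3.80, 3.49 and 4.81 in old livers, and Apoc1 1.73, 0 and 0 in young and 2.26, 1.81 and 1.80 in old livers. The Apoc1 liver peaks did not share a place. Their summits ran from -1096 to 1119 bases relative to the start, with a −log10 q of 0.644 to 3.29. Old liver above young liver without overlap was found for 4.96% of genes, and 3 libraries against 3 cannot give an exact permutation p below 0.1. Apoe in kidney, whose mRNA rose with age, had 2.77, 2.61 and 3.25 in young and 1.79, 2.52 and 3.89 in old libraries. For Apoa4 the kidneys had 3.70, 3.70 and 0 in young and 0, 2.94 and 0 in old libraries. Within 10 kb of the 5 loci there was no region with a peak in all 6 livers and no kidney, nor the reverse. Over all chromosomes these were 0.534% and 1.6% of 481669 regions. The loci held 11 (Apoa2), 20 (Apob), 7 (Apom), 27 (Apoc2 to Apoe) and 23 (Apoa1 to Apoa5) regions, too few to show a departure from such shares.

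**Figure D5:**
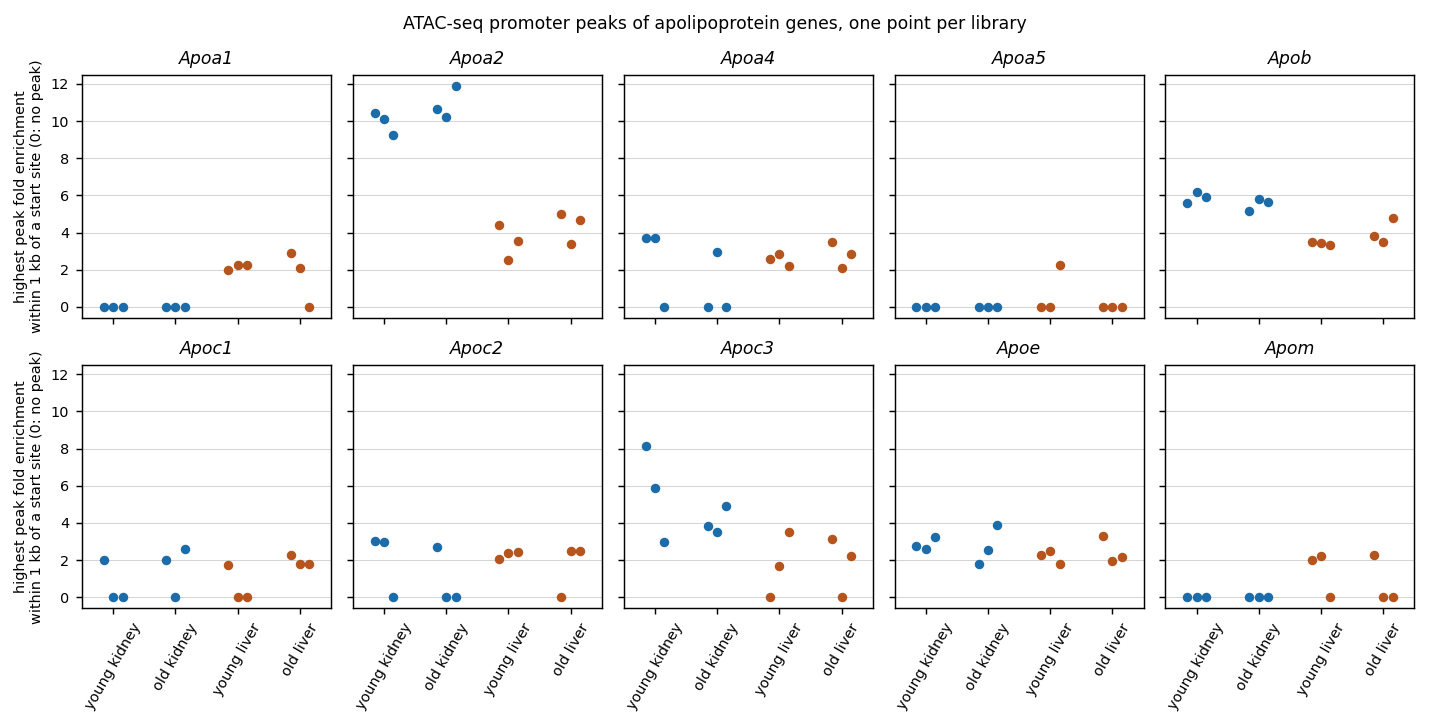
Highest fold enrichment of an ATAC-seq peak within 1 kb of a start of each apolipoprotein gene, 1 point per library, for young and old kidney and young and old liver, with 0 for no peak. Apoa1 has peaks in 5 livers and no kidney, and Apoa2 and Apob have their highest values in kidney.

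Across the 38 RNA libraries the genes whose log2 CPM followed each apolipoprotein most closely were mostly liver genes. Apoa1 was nearest to Serpind1 (Pearson r = 0.996), Apoa2 to Crp (0.994), Apoa4 to Agt (0.985), Apoa5 to Ces2a (0.998) and Apob to Nr1i2 (0.994). For Apoc1 it was Rbp4 (0.996), for Apoc3 Fgg (0.995), for Apoe Gnmt (0.994), for Apom Phyh (0.990) and for Apoc2 the pseudogene Cyp2d37-ps (0.981). These values describe 14753 genes over libraries that share 3 tissues, so they hold the difference between tissues. They also pool the young and old libraries with the DMSO and 3C libraries, so they hold any difference between these series.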

How the data were processed

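The RNA libraries were, per the study's methods, trimmed with Trimmomatic 0.39, aligned to mm10 with HISAT2 2.2.1 and counted per gene with HTSeq 0.12.4 without strand, and the authors deposited raw read counts, 1 table per library. ATAC-seq reads were aligned with Bowtie2 2.3.5.1 and filtered by the authors for duplicates and a mapping quality over 10, and peaks were called per library with MACS2. The deposited peak files give a display score, a fold enrichment (a ratio), and p and q values as −log10. The versions come from the submitters' processing notes.

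CPM used the reads assigned to genes. TPM used the exon length of 24429 of the 24984 genes (97.8%) in RefSeq GRCm38.p6. Groups were compared with edgeR 4.0.16 (R 4.3.3, limma 3.58.1): TMM scaling, filterByExpr with a minimum count of 10, the quasi-likelihood test and Benjamini-Hochberg adjustment over all genes tested. Calls needed a fold above 2 or below 0.5 with an adjusted p under 0.05, and for interactions the adjusted p alone. The young and old libraries carry tallies of reads without a unique position and the DMSO and 3C libraries carry none, so no test compared these series. Peaks hold no counts per common region, so promoters were described without a test. Python 3.11.15, numpy 2.4.6, scipy 1.17.1, pandas 2.3.3 and matplotlib 3.10.9 were used. The edgeR comparisons and the promoter peak search were tested on simulated data.

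Alternatives were DESeq2 1.42.0, other size factors, no filter, a replicate block, the adjusted p alone, leaving out each library and, for peaks, a −log10 q of at least 5, the summit in the window and a window of 250 bp. Samples were grouped by their labels. Counts of all 54 replicate pairs differed beyond sampling noise (chi-square over degrees of freedom at least 7.78). Replicate numbers may pair the young kidney and young liver libraries: deviations of same-numbered libraries from their group means correlated at 0.118, 0.219, 0.105 and 0.458. Young kidney replicates 2, 3 and 4 correlated best with the liver of their own number, but replicate 1 correlated better with a liver of another number. This possible pairing is read from the data, since the labels give only numbers. All 10 genes are named, with up to 3 higher and 3 lower genes of smallest p per list and the closest gene by correlation, except a few genes that are not reported here. The apolipoproteins, partner lists and marker lists were chosen with earlier results of these data known.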

Additional observations from a re-analysis of the deposited data

Results flagged for a closer look

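In 75 groups of 4 libraries with reads, a library was marked where its gap to the nearest other library exceeded Dixon's 95% limit for the group's range. For independent groups, chance marks about 1 in 20. Here 12 were marked, several of them in the same library, so the marks are not independent and the rates cannot be set against each other. Old kidney replicate 2 was marked for 5 apolipoproteins. It held 172.4 CPM of Apoa1 (others at most 3.17), 169.6 CPM of Apoa2 (at most 10.18), 31.62 CPM of Apoa5 (at most 0.0492), 71.68 CPM of Apoc1 (at most 8.26) and 65.39 CPM of Apoc3 (at most 18.47). This is the library with 4373 CPM of hepatocyte markers.

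Young kidney replicate 4 was marked for 3 genes, with 14.93 CPM of Apoa4 (others 7.13 to 8.22), 13.98 CPM of Apoc3 (others 9.34 to 9.67) and 114.6 CPM of Apom (others 81.53 to 85.15). Old liver replicate 1 was marked for Apoa4, at 471.5 CPM (others 102.6 to 162.9), and for Apom, at 616.3 CPM (others 274.6 to 290.9). The remaining marks were 9605 CPM of Apoa1 in 3C liver replicate 1 (others 4962 to 5150) and 3872 CPM of Apoc3 in DMSO liver replicate 3 (others 2605 to 2742).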

How the results depend on the processing

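Over settings that leave out no library, 495 of 510 values kept their direction and side of the threshold, or moved by less than the limit set for them, and 15 did not (5 moved, 4 reversed, 5 newly passed and 1 no longer passed). All 10 apolipoproteins were higher in liver than in kidney under every setting, in young and in DMSO mice. In ageing kidney 2 were called, and leaving out a library gave 0 to 2. In ageing liver leaving out a library gave 0 to 1. For age by tissue, DESeq2 gave 3, the replicate block 1 and leaving out a library 0 to 1: Apoa1 without old kidney replicate 1 (edgeR adjusted p = 0.0462) or 4 (0.0322), and Apoa4 without old liver replicate 1 (-2.81, 0.0072). DESeq2 also called Apoc3 in ageing kidney (1.29, adjusted p = 0.0285), and edgeR called Apoa1 there without old kidney replicate 4 (6.28, adjusted p = 0.0419). In no other set did every pair of same-numbered libraries correlate over 0.1, though in 3C kidney and 3C liver each library correlated best with its own number (0.0927 to 0.196). The replicate block left 1 call in ageing kidney, since Apoa4 was no longer called (1.34, edgeR adjusted p = 0.0504), and gave 1 for age by tissue (Apoa4 at -2.19, adjusted p = 0.0374), it changed no other call, and it turned the sign of Apoc1 (-0.0017) and Apom (-0.14) in ageing liver, of Apoa1 with 3C in kidney (0.11) and of Apoa1 for 3C by tissue (-0.21). Of member promoters, liver was above kidney for 0 to 1 when a library was left out (Apoa1, without old liver replicate 3), and old and young did not overlap in 2 to 5 pairs (5 without young kidney replicate 3, 4 when young kidney replicate 1 or old liver replicate 2 was left out), 1 at a −log10 q of at least 5 and 1 with the window of 250 bp. Leaving out each library in turn gave log2 fold changes on both sides of 0 for Apoc1 in ageing kidney (-0.020 to 2.52), for Apoa2 (-0.67 to 0.086), Apoc1 (-0.31 to 0.32), Apoc3 (-0.65 to 0.13), Apoe (-0.60 to 0.020) and Apom (-0.53 to 0.23) in ageing liver, and for Apoa2 in fibroblasts (-0.44 to 0.41). With 3C in kidney the ranges were -0.41 to 0.66 for Apoa1, -0.28 to 0.031 for Apoa2, -0.62 to 0.21 for Apoc1 and -0.0024 to 0.28 for Apom. With 3C in liver they were -0.34 to 0.056 for Apoa1, -0.22 to 0.027 for Apoa2, -0.14 to 0.67 for Apoa4, -0.071 to 0.16 for Apoa5, -0.14 to 0.12 for Apoc2, -0.28 to 0.076 for Apoc3 and -0.29 to 0.017 for Apom. For age by tissue they were -2.45 to 0.056 for Apoc1 and -0.87 to 0.019 for Apom, and for 3C by tissue -0.77 to 0.30 for Apoa1, -0.18 to 0.22 for Apoa2, -0.32 to 0.51 for Apoa4, -0.69 to 0.81 for Apoa5, -0.39 to 0.45 for Apoc1 and -0.14 to 0.14 for Apoe. None of these was called in the fit to all libraries. The cause of these changes was not tested beyond the library or setting named. The partner genes were refitted without a library only for old kidney replicate 2. Apoc2 rests on at most 10.5 CPM and its counts are uncertain.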
